A study of Homo sapiens with 12 samples.

Results

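The 8 genes described here carry the cell's buffering and export of zinc: the metallothioneins MT1E, MT1F, MT1G, MT1H, MT1M, MT1X and MT2A and the zinc exporter SLC30A1. They were taken by gene name as 8 of the 60617 gene rows in the TPM table, in which reads are scaled by gene length and by library. RNA-Seq had been run on 12 libraries of 201B7, a single established human iPSC line, grown in StemFit on iMatrix511 with Y-27632 at seeding and harvested on Day 5. Cond 1 was the control with plain StemFit. Cond 2 (low nutrient) received StemFit heated to 56 °C for 30 min, applied from Day 2. Cond 3 (differentiation) received a medium of DMEM, FBS (10%), GlutaMax (1%) and MEM NEAA (1%), applied on Day 4. Cond 4 (physical stimulus) was pipetted 20 times at passage. Each condition had 3 libraries, 1 well from each of 3 plates of a single line, and the study calls them technical replicates, so every p-value below measures the spread between these wells only. In bulk RNA, fewer expressing cells and less RNA per cell cannot be told apart.

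Metallothioneins are small cysteine-rich proteins that bind zinc and copper and release them again. Their transcription is known to rise when free zinc activates MTF1, a zinc-finger factor that binds metal response elements (MREs) in their promoters. SLC30A1 (ZnT1) is the zinc exporter of the plasma membrane and a classical MTF1 target as well. Some metallothioneins are also known to respond to glucocorticoids and oxidants.

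The metallothioneins form a cluster on chromosome 16 (GRCh38, positions 56608584 to 56684196, 75613 bases). MT1G lies on the minus strand and the other 6 on the plus strand. The annotated main transcripts have 3 exons, apart from MT1E with 2. SLC30A1 lies alone on chromosome 1 (211571568 to 211579161, minus strand) and has 2 exons. The family is closely related in sequence, so the reads of one copy can be lost to or gained from another. Of the 31-base words in the annotated transcripts, MT1M shared 44.4% with another gene, MT1H 29.9%, MT1G 23.3%, MT1X 20.3%, MT1E 15.6%, MT2A 12.7% and MT1F 3.31%, and SLC30A1 shared 0. How reads with several matches were counted is not given in the sources used here, and values of single metallothioneins carry that uncertainty. MT1X also overlaps a same-strand long non-coding RNA listed with 0 reads, and reads in such an overlap can go uncounted.

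RefSeq promoter sequence (GRCh38.p14) was at hand for MT2A, MT1H, MT1X and SLC30A1, 4 of the 8 genes. The 250 bases upstream of each annotated start are shown because they hold the elements through which zinc is known to act. They run 5′ to 3′ on the strand of the gene, and capitals mark every MRE core, TGCACNC or TGCGCNC, on either strand. The MT2A stretch is chr16:56608334-56608583 (plus strand), MT1H chr16:56669564-56669813 (plus), MT1X chr16:56682220-56682469 (plus) and SLC30A1 chr1:211579162-211579411 (minus).
MT2A: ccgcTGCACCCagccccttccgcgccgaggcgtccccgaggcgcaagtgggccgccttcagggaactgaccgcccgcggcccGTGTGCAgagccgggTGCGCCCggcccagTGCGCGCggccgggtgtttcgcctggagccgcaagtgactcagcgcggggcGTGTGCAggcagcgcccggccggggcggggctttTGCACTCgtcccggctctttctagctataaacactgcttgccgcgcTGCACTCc
MT1H: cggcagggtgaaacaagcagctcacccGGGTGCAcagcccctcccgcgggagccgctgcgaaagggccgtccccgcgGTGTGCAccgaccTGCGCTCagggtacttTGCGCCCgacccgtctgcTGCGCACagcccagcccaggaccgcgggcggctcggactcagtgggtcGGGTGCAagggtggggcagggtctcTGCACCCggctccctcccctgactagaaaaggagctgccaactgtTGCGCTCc
MT1X: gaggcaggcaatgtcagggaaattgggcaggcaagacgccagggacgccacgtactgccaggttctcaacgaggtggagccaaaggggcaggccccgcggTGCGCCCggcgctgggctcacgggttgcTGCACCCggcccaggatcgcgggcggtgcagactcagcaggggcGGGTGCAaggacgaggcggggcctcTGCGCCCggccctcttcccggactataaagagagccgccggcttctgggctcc
SLC30A1: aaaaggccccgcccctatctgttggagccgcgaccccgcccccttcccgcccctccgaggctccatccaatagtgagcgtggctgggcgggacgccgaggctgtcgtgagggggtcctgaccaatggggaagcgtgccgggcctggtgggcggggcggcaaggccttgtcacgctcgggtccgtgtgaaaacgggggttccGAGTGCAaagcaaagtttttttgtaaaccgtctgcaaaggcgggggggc

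Counted over 300-base windows that add 50 bases after the start, MT2A and MT1H each held 8 MRE cores, a number that 0.0199% of 35116 RefSeq promoter windows reached. MT1X held 4, a number reached by 0.601% of windows, and SLC30A1 held 2, reached by 8.6%. At least 1 core was present in 29.6% of all windows, so a single match is common. In MT2A, MT1H and MT1X a core lay within bases 47 to 54 before the start. GC boxes (GGGCGG, either strand) numbered 6 in SLC30A1, 2 in MT2A, 2 in MT1X and 1 in MT1H, and 45% of windows held at least 1. In MT1X an MRE core and a GC box share bases. A TATA box (TATAAA, either strand) stood 30 bases before the start of MT1X and 29 before that of MT2A, and none was found in the MT1H and SLC30A1 windows, against 11.5% of all windows with 1 or more. These are matches of letters, and no binding was measured.

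**Figure D1:**
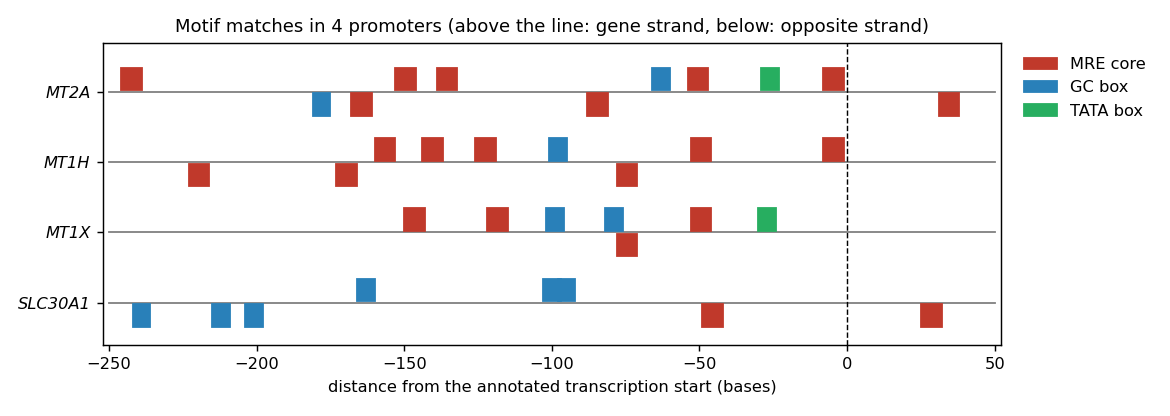
Positions of motif matches in the promoter windows of MT2A, MT1H, MT1X and SLC30A1, by distance from the annotated transcription start in bases (x axis). Boxes above a line are on the strand of the gene and boxes below on the other strand. MT2A and MT1H hold 8 MRE cores each, MT1X 4 and SLC30A1 2.

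The libraries held 16441148 to 21871503 gene-assigned reads. Of 12 pluripotency markers, 11 or 12 were at a mean of at least 1 TPM in each condition, and their summed level was at least 7436 TPM in every library. Single markers moved both ways, with 4 called higher and 5 lower in Cond 2 and 6 higher and 3 lower in Cond 3. Over all genes tested, 10.8% were called higher and 10.1% lower in Cond 2, and 19.5% and 18.8% in Cond 3. NANOG, a core pluripotency factor, fell from a mean of 45.9 TPM in Cond 1 to 22.9 in Cond 2 and 10.5 in Cond 3. The part of these markers in the results below was not tested. Of 8 fibroblast markers, 4 were at a mean of at least 1 TPM in each condition, among them COL1A1 and THY1, and the list summed to 424 to 456 TPM in Cond 1, 264 to 314 in Cond 2, 585 to 622 in Cond 3 and 384 to 408 in Cond 4. FAP was listed at 0 throughout and DCN at 0 in Cond 1, Cond 2 and Cond 3. Of 5 fibroblast markers tested, 2 were called higher and 1 lower in Cond 3, and 0 higher and 3 lower in Cond 2. Of 6 amnion or surface ectoderm markers tested, 4 were called higher and 1 lower in Cond 2, and the same numbers in Cond 3. A neuroectoderm marker list (6 genes, among them SIX3, HESX1 and OTX2) summed to 107 to 127 TPM in Cond 1, 535 to 770 in Cond 2, 209 to 253 in Cond 3 and 114 to 160 in Cond 4.

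MT2A, the main metallothionein of many human tissues, was the most abundant of the 7 in every condition. In Cond 1 its level was 44.7, 54.5 and 35.3 TPM, in Cond 2 33.3, 51.3 and 54.7, in Cond 3 37.5, 44.4 and 38.8, and in Cond 4 45.1, 48.4 and 29.3. All 4 conditions overlapped. The means were 44.8 ± 9.59 TPM (SD, n = 3), 46.5 ± 11.5, 40.2 ± 3.65 and 40.9 ± 10.2 for Cond 1 to Cond 4. MT2A passed no test, with a log2 fold change of −0.03 in Cond 2 (95% interval −0.43 to 0.36, adjusted p = 0.938) and −0.18 in Cond 3 (−0.57 to 0.22, adjusted p = 0.502). Neither interval reaches a 2-fold change in either direction.

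MT1G and MT1E were the next metallothioneins in level in Cond 1, Cond 2 and Cond 4. MT1G measured 21.1, 33.6 and 11.4 TPM in Cond 1 and 24.0, 43.7 and 50.1 in Cond 2. In Cond 3 it measured 0.653, 9.01 and 5.53 TPM, from 3, 37 and 22 reads. In Cond 4 it measured 16.1, 21.6 and 15.5. The Cond 3 libraries lay below every other library. Cond 1 overlapped with Cond 2 and with Cond 4, and every Cond 2 library was above every Cond 4 library. MT1E measured 15.2, 19.1 and 9.08 TPM in Cond 1, 19.6, 33.8 and 46.0 in Cond 2, 4.81, 9.90 and 7.34 in Cond 3 and 14.9, 15.7 and 9.31 in Cond 4. Every Cond 2 library was above every library of the other conditions for MT1E, the lowest by a small margin, and the highest Cond 3 library was within the range of Cond 1.

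MT1H, MT1X and MT1F were lower. MT1H measured 13.3, 13.2 and 4.72 TPM in Cond 1, 8.76, 11.9 and 19.5 in Cond 2, 2.93, 8.34 and 10.7 in Cond 3 and 9.65, 8.08 and 8.69 in Cond 4, and all conditions overlapped with Cond 1. MT1X measured 5.36, 5.64 and 2.27 TPM in Cond 1, 6.07, 5.78 and 5.29 in Cond 2, 0.851, 0.529 and 1.64 in Cond 3 and 4.77, 5.41 and 5.14 in Cond 4. The Cond 3 libraries of MT1X, with 9, 5 and 15 reads, were the lowest of the 12. MT1F measured 2.84, 3.43 and 1.57 TPM in Cond 1, 4.70, 4.35 and 8.97 in Cond 2, 1.94, 2.47 and 0.102 in Cond 3 and 3.08, 4.63 and 2.10 in Cond 4. Its Cond 2 libraries lay above those of Cond 1 and Cond 3, and overlapped with those of Cond 4.

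MT1M was close to absent. It had 1 read in Cond 1 (1 library), 0 in Cond 2 and in Cond 4, and 1, 6 and 0 reads in Cond 3. It did not pass the filter on low counts and was not tested, and a count of 0 allows up to 3 reads in a library. The other metallothionein genes and pseudogenes were also near 0, with 1 exception: of 13 rows listed, 7 had 0 reads in all 12 libraries, 5 had 1 to 3 reads in all, and the pseudogene MT1XP1 had 5, 6, 12 and 25 in Cond 1 to Cond 4, more than MT1M. The tissue-restricted MT3 and MT4, and MT1A and MT1B, were among the near-silent genes.

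SLC30A1 was measured far more precisely than the metallothioneins, with 753 to 1313 reads per library. Its level was 32.3, 33.7 and 30.1 TPM in Cond 1, 39.4, 39.0 and 39.6 in Cond 2, 21.5, 23.3 and 25.5 in Cond 3 and 37.0, 31.97 and 34.6 in Cond 4. The order of the conditions was Cond 2, Cond 4, Cond 1 and Cond 3. Cond 4 and Cond 1 overlapped, and the Cond 2 and Cond 3 libraries lay at the top and bottom with no overlap with any other condition.

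**Figure D2:**
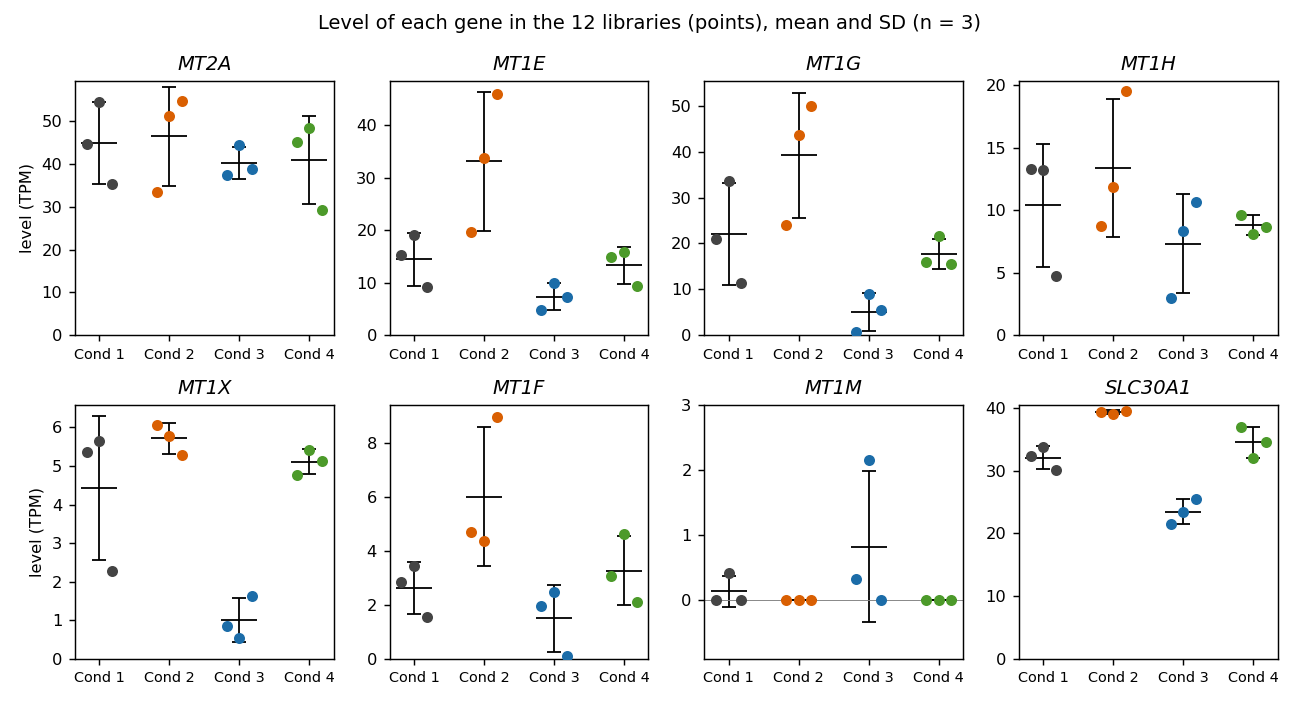
Level in TPM (y axis, separate scale in each panel) of the 8 genes in the 12 libraries, grouped by condition. Points are libraries, horizontal bars the mean of 3 and whiskers the SD. MT1G, MT1X and SLC30A1 are lowest in the 3 Cond 3 libraries, whereas MT2A stays between 29.3 and 54.7 TPM.

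The order of levels among metallothioneins depends on the gene length behind the TPM. The deposited lengths join all annotated exons and reach 1852 bases for MT1F and 1727 for MT1X, while their main transcripts have 425 and 404 bases. On the length of the main transcript, a scale added after the data were seen, the Cond 1 mean of MT1X became 18.9 TPM in place of 4.43 and that of MT1F 11.4 in place of 2.61. MT2A stayed first in all conditions on either scale, at 102 TPM in Cond 1 on the second. Differences between conditions within a gene do not depend on this length.

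Summed over the 7 metallothioneins, the level was 102, 130 and 64.3 TPM in Cond 1, 96.4, 151 and 185 in Cond 2, 49.0, 76.7 and 64.0 in Cond 3 and 93.5, 104 and 70.1 in Cond 4. The means were 98.9 ± 32.9 TPM (SD, n = 3), 144 ± 44.5, 63.3 ± 13.9 and 89.1 ± 17.3, and each condition overlapped with Cond 1. The make-up of the sum also varied. MT2A made up 43.6, 41.9 and 54.9% of the summed TPM in Cond 1, 34.6, 34.1 and 29.7% in Cond 2, 76.5, 57.8 and 60.5% in Cond 3 and 48.2, 46.6 and 41.8% in Cond 4. The Cond 2 shares were all below and the Cond 3 shares all above those of Cond 1 (p = 0.1 for each by a two-sided exact permutation test, the smallest p that 3 against 3 libraries allow). The share of MT1G had a mean of 21.4% in Cond 1 and 7.23% in Cond 3 without overlap, and that of MT1E was 14.6% in Cond 1 and 22.5% in Cond 2 without overlap (exact permutation p = 0.1 for each). These shares are of TPM and move with the length scale just described.

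**Figure D3:**
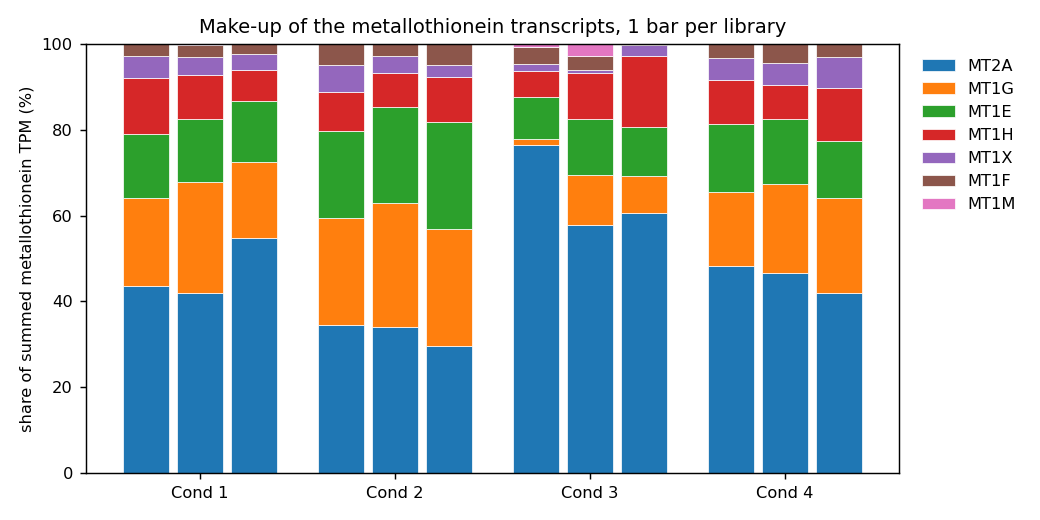
Share of the summed metallothionein TPM (y axis, percent) taken by each of the 7 genes, 1 bar per library, grouped by condition. MT2A takes 29.7 to 34.6% in Cond 2, 41.9 to 54.9% in Cond 1 and 57.8 to 76.5% in Cond 3.

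The comparison of Cond 2 with Cond 1 asks what heated, nutrient-poor medium did to these transcripts. MT1E rose 2.16-fold (log2 fold change 1.11, SE 0.29, adjusted p = 0.00823, edgeR quasi-likelihood test), and it was the single gene called among the 7 that could be tested. Of all 17747 genes tested, 10.8% were called higher and 10.1% lower in this comparison, and 1.84% were higher by more than 2-fold. The call of MT1E rested on single libraries: without replicate 3 of Cond 1 the log2 fold change was 0.87 and without replicate 3 of Cond 2 it was 0.81, and in both cases the call was lost, with adjusted p-values of 0.0604 and 0.0666.

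The other metallothioneins in Cond 2 did not pass. MT1F had a log2 fold change of 1.12 (95% interval 0.09 to 2.15, adjusted p = 0.122), MT1G 0.76 (−0.05 to 1.56, adjusted p = 0.188), MT1X 0.30 (adjusted p = 0.617) and MT1H 0.28 (adjusted p = 0.699). SLC30A1 had a log2 fold change of 0.21 (0.05 to 0.37, adjusted p = 0.0611). SLC30A1, MT1E and MT1F had all Cond 2 libraries above all Cond 1 libraries in TPM, as did 24.4% of the genes tested, with an exact permutation p of 0.1 for each. The median log2 fold change of the 6 metallothioneins tested was 0.53, with 5 above 0, against 0.000183 over all genes. Without replicate 3 of Cond 1, MT1H and MT1X fell below 0 (−0.071 and −0.020). The 6 genes tended to be high or low in the same wells, so they are not 6 separate observations. The summed neuroectoderm markers were higher in all Cond 2 libraries than in any other library, as given above, and their part in the MT1E result was not tested.

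The comparison of Cond 3 with Cond 1 covers the serum-containing differentiation medium. MT1G fell 4.45-fold (log2 fold change −2.15, SE 0.46, adjusted p = 0.000765) and MT1X fell 4.43-fold (−2.15, SE 0.41, adjusted p = 0.000236). SLC30A1 fell to 73.3% of its Cond 1 mean TPM (log2 fold change −0.48, SE 0.08, adjusted p = 5.76e-05), and MT1E fell (−0.998, SE 0.325, adjusted p = 0.0182). Called lower were thus 4 of 7 genes tested, against 18.8% of all genes, and past a 2-fold decrease 2 of 7, against 3.31%. No member was called higher, against 19.5% of all genes.

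MT1F (log2 fold change −0.80, 95% interval −1.93 to 0.34, adjusted p = 0.274), MT1H (−0.53, −1.42 to 0.36, adjusted p = 0.358) and MT2A did not pass. The median over the 6 metallothioneins was −0.90, and all 6 were below 0, while the median of all genes was −0.01. Here too the 6 genes are not separate observations. MT1G, MT1X and SLC30A1 had all Cond 3 libraries below all Cond 1 libraries, which held for 22% of all genes (exact permutation p = 0.1 for each). The call of MT1E was lost without replicate 1 or 2 of Cond 1 or replicate 1 of Cond 3 (adjusted p = 0.0513, 0.104 and 0.106), and the calls of MT1G, MT1X and SLC30A1 were kept in all 6 such fits, though MT1G lost its call with limma on log2(TPM + 0.1) (log2 difference −2.58, adjusted p = 0.0868). In 1 Cond 3 library MT1G had 3 reads, and without that library its log2 fold change was −1.60. Summed hepatocyte markers were 6.96 to 12.01 TPM in Cond 3 and 1.84 to 3.43 in Cond 1. Of these 5 markers, 2 were at a mean of at least 1 TPM in Cond 3 and 2 were at 0. Summed fibroblast markers were 585 to 622 TPM in Cond 3 and 424 to 456 in Cond 1. Single fibroblast markers moved both ways, with 2 called higher and 1 lower of 5 tested, against 19.5% and 18.8% of all genes. The part of these markers in the results was not tested.

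The comparison of Cond 3 with Cond 2 set the 2 changed media against each other and gave larger differences for 5 genes than either comparison with Cond 1. The 2 media were also applied from different days, and the parts of medium and time of exposure cannot be told apart. MT1G was 7.51-fold lower in Cond 3 (log2 fold change −2.91, adjusted p = 2.20e-05), MT1X 5.44-fold (−2.44, adjusted p = 4.82e-05), MT1E 4.31-fold (−2.11, adjusted p = 1.24e-05), MT1F 3.76-fold (−1.91, adjusted p = 0.00563) and SLC30A1 1.61-fold (−0.69, adjusted p = 4.23e-07). These 5 of 7 compare with 19.2% of all genes called lower, and the 4 past a 2-fold decrease compare with 3.01%. The same 5 had no overlap in TPM between the conditions, as had 27.3% of genes in this direction (exact permutation p = 0.1 for each). MT1H (−0.81, 95% interval −1.69 to 0.06, adjusted p = 0.139) and MT2A (−0.15, −0.54 to 0.25, adjusted p = 0.587) did not pass. Leaving out any single library kept all 5 calls, and with limma on log2(TPM + 0.1) MT1F lost its call (−2.51, adjusted p = 0.103). The comparisons of Cond 2 and Cond 3 with Cond 1 share the Cond 1 libraries, and this one uses their Cond 2 and Cond 3 libraries again, so they are not independent.

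Pipetting at passage left no call. In Cond 4 against Cond 1 the log2 fold changes ran from −0.31 for MT1G to 0.32 for MT1F, with adjusted p-values of at least 0.906, and 0 of 7 genes passed edgeR, with 0 at an unadjusted p under 0.05. Limma called none either, and DESeq2, which gave an adjusted p for MT2A and SLC30A1 alone, called neither. Over all genes 0.0282% were called in this comparison and 6.21% had an unadjusted p under 0.05. The interval for SLC30A1 was narrow (−0.07 to 0.26), whereas those of MT1G (−1.15 to 0.53) and MT1F (−0.75 to 1.39) leave room for 2-fold changes.

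**Figure D4:**
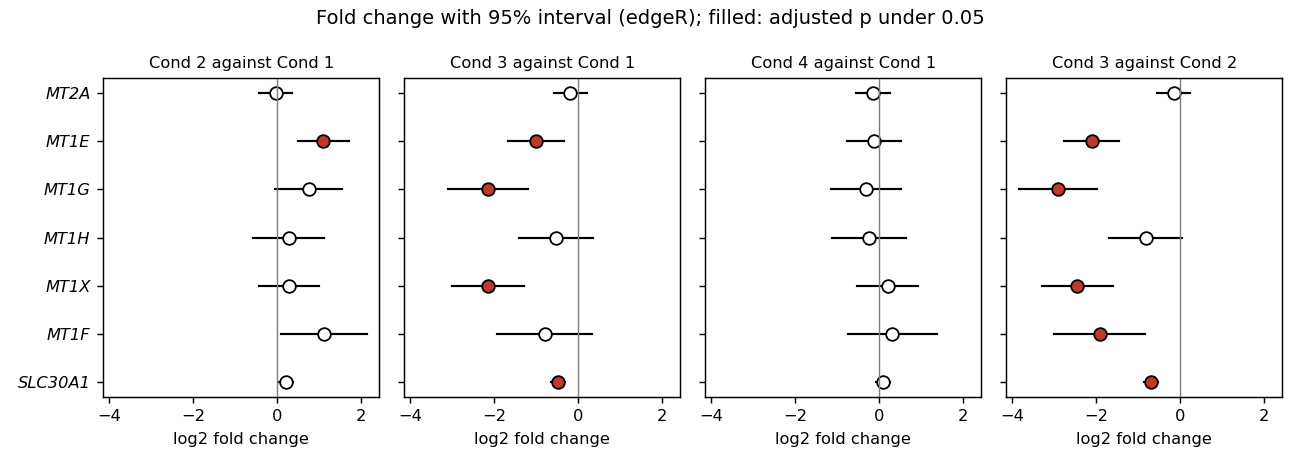
Log2 fold change (x axis) with its 95% interval from edgeR for the 7 genes tested, in the 4 comparisons. Filled points have an adjusted p under 0.05: 1 gene in Cond 2, 4 in Cond 3 and 0 in Cond 4 against Cond 1, and 5 in Cond 3 against Cond 2.

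Over the 6 metallothioneins tested and 4 conditions, the spread between wells was wider than counting error gives in 21 of 24 cases and wider than that of SLC30A1 in the same condition in 23 of 24. The exceptions to the first were MT1H in Cond 4 and MT1X in Cond 2 and Cond 4, and to the second MT1X in Cond 4, and MT2A in Cond 3 (9.78%) was close to SLC30A1 (9.34%). In Cond 1 the coefficient of variation of the CPM was 49.0% for MT1G, where counting error alone gives 10.8%, and 33.3% for MT1E, where it gives 11.2%. For SLC30A1 the values were 3.80% and 3.15%. The metallothioneins tended to be high or low in the same wells. Replicate 3 of Cond 1 was the lowest of its condition for 6 of 6 metallothioneins, and replicate 3 of Cond 2 was the highest of its condition for 5 of 6. In Cond 4 replicate 2 was the highest for 5 of 6.

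After the mean of each condition was removed, MT1E correlated over the 12 libraries with MT2A at r = 0.92, with MT1G at 0.83 and with MT1H at 0.79, and MT1G with MT1H at 0.85, as a description of genes measured in the same libraries. MT1X (0.27 with MT1E) and MT1F (0.50 with MT1E) followed less closely. Among the metallothioneins, MT1F ran from −0.17 with MT1X to 0.56 with MT2A, and MT1X from −0.17 with MT1F to 0.56 with MT1H. SLC30A1 ran from −0.35 with MT1F to 0.73 with MT1H. The median deviation of the metallothioneins from the condition mean ran from −0.68 to 0.47 on the log2 CPM scale. The plot of deviations by library below uses log2(TPM + 1) instead.

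**Figure D5:**
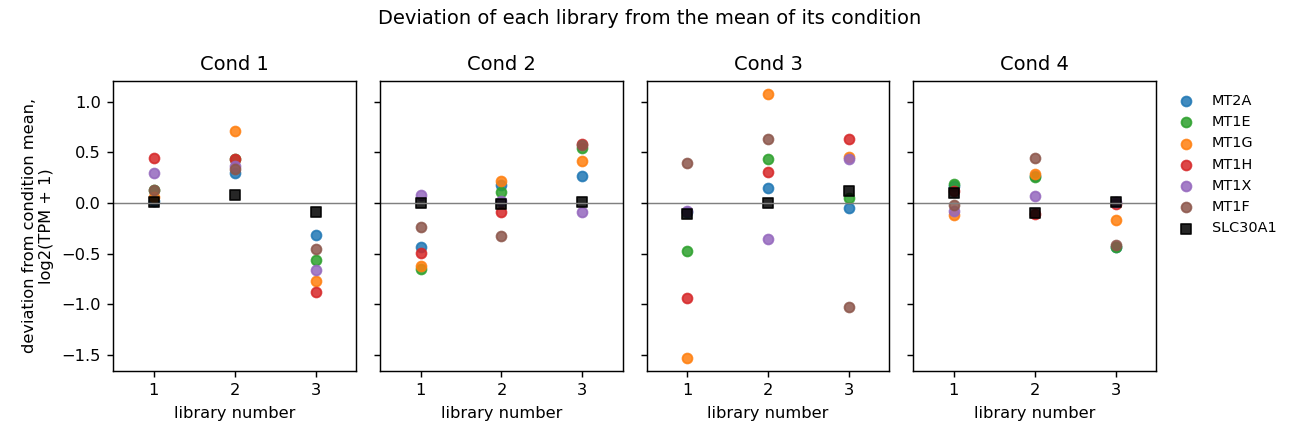
Deviation of each library from the mean of its condition, in log2(TPM + 1) (y axis), for 6 metallothioneins (circles) and SLC30A1 (squares), by library number (x axis) within each condition. Replicate 3 of Cond 1 lies below 0 for all 6 metallothioneins, and SLC30A1 lies close to 0 throughout.

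MTF1 itself was not called in any comparison. Its mean level was 7.70 ± 0.746 TPM (SD, n = 3) in Cond 1, 9.50 ± 0.431 in Cond 2, 7.81 ± 1.24 in Cond 3 and 8.62 ± 0.531 in Cond 4 (adjusted p = 0.228, 0.968 and 0.902 against Cond 1). Of 5 tested genes on metal sensing and MTF1 regulation, none was called in Cond 2, and in Cond 3 USF1, a helix-loop-helix transcription factor, rose (log2 fold change 0.56, adjusted p = 1.20e-05) and MTF2, a Polycomb-like protein, fell (−0.26, adjusted p = 0.00106). The medians of this list were 0.03 and −0.01. For this list and those in the paragraphs below, the shares called over all genes tested were 10.8% higher and 10.1% lower in Cond 2. In Cond 3 the shares over all genes were 19.5% higher and 18.8% lower.

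Among the 8 ZnT exporters tested, SLC30A1 included, 1 was called lower in Cond 2, and 1 higher and 3 lower in Cond 3, with median log2 fold changes of −0.02 and −0.13. SLC30A3, which loads zinc into vesicles, rose in Cond 3 from 5.44 to 14.04 TPM (log2 fold change 1.34, adjusted p = 4.67e-08). SLC30A5, a zinc transporter of the early secretory pathway, fell in Cond 2 (−0.26, adjusted p = 0.0212) and Cond 3 (−0.22, adjusted p = 0.0347). SLC30A10, mainly a manganese exporter, fell in Cond 3 (−1.17, adjusted p = 0.0155) from a mean of 0.946 TPM.

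Of 11 ZIP importers tested, 1 was called higher and 3 lower in Cond 2, and 2 higher and 2 lower in Cond 3, with medians of −0.11 and 0.20. SLC39A8 (ZIP8), a zinc and manganese importer, fell in Cond 2 from 5.85 to 2.94 TPM (log2 fold change −1.08, adjusted p = 1.34e-05) and rose in Cond 3 to 8.23 (0.46, adjusted p = 0.0120). SLC39A14 (ZIP14), a zinc, iron and manganese importer and the most abundant of the list in Cond 1 at 157 TPM, fell in both (−0.34, adjusted p = 0.000832, and −0.59, adjusted p = 4.14e-07). SLC39A6 (ZIP6) rose in Cond 2 (0.32, adjusted p = 0.00048), and its partner SLC39A10 (ZIP10) rose in Cond 3 (0.20, adjusted p = 0.0150). In Cond 3 against Cond 2, SLC39A8 (1.54) and SLC39A1 (0.90) had the largest differences of the list, both higher in Cond 3 (adjusted p = 3.16e-08 and 0.0111).

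Metals other than zinc gave counts in both directions. Of 15 copper and iron genes tested, 2 were higher and 3 lower in Cond 2, and 3 higher and 5 lower in Cond 3, with medians of −0.08 and 0.01. CCS, the copper chaperone of SOD1, fell in Cond 3 (log2 fold change −0.54, adjusted p = 2.53e-06), ATP7B, a copper exporter, rose (0.68, adjusted p = 4.54e-05), and IREB2, an iron-responsive RNA-binding protein, rose (0.53, adjusted p = 3.51e-07). ACO1, its relative, fell in Cond 2 (−0.61, adjusted p = 2.14e-06).

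Genes of 2 further inputs to metallothionein transcription were set beside them. Of 8 glucocorticoid-response genes tested, 1 was higher and 2 lower in Cond 2, and 4 higher and 2 lower in Cond 3, with medians of 0.02 and 0.09. TSC22D3 (GILZ) fell in Cond 3 from 73.6 to 18.5 TPM (log2 fold change −2.02, adjusted p = 2.43e-14). KLF9 went from 1.76 TPM in Cond 1 to 0.611 in Cond 2 (−1.60, adjusted p = 0.000189) and 3.98 in Cond 3 (1.15, adjusted p = 0.000565). Of 10 oxidative and heavy metal stress genes, 2 rose in Cond 2 (TXNRD1, a thioredoxin reductase, and HSPH1, a chaperone, with log2 fold changes of 0.25 and 0.29) and none fell, and in Cond 3 the counts were 2 higher and 5 lower, with medians of 0.0039 and −0.21. SLC7A11, the cystine importer, fell in Cond 3 from 55.7 to 13.7 TPM (−2.05, adjusted p = 2.43e-14), and NQO1, a quinone reductase, fell (−0.79, adjusted p = 4.31e-06). Of 8 zinc enzymes and related genes, 2 were higher and 2 lower in Cond 2, and 4 higher and 1 lower in Cond 3, with medians of −0.02 and 0.27. CA4, a carbonic anhydrase, rose from 1.11 to 3.90 TPM in Cond 2 (1.72, adjusted p = 0.00217) and to 6.81 in Cond 3 (2.58, adjusted p = 1.02e-05). In Cond 4 no gene of these lists was called.

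Over the 12 libraries and 12053 genes at a mean of at least 5 TPM, the genes with a log2(TPM + 1) pattern most like SLC30A1 were NFYC (r = 0.97), a subunit of the CCAAT-binding factor NF-Y, DENR (0.97), C8orf33 (0.97), RAP2C (0.97) and RBBP8 (0.96). The least alike were COL8A2 (−0.97), HSPB8 (−0.97) and NSMF (−0.96). Most like the summed metallothioneins were LDAH (0.93), AAGAB (0.93), PRPF6 (0.93), RPL5 (0.92) and PIP4K2C (0.92), and least alike TMEM243 (−0.93), HAUS6P1 (−0.88) and LZTS3 (−0.88). These values are descriptions of libraries that fall into conditions, and they share depth and scaling. On log2 CPM 4 of the 5 nearest genes of SLC30A1 stayed among the nearest 5, and 1 of 5 for the metallothionein sum.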

How the data were processed

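Poly(A) RNA was sequenced from 12 libraries, 3 per condition. According to the labels and methods, the authors used bcl2fastq 2.20.0.422, cutadapt 4.1, fastp 0.20.1, HISAT2 2.1.0 (GRCh38) and featureCounts. Raw whole-number counts and TPM were deposited per gene, the TPM being values that a recomputation from counts and deposited gene lengths matched to a relative deviation of 1.79e-14. Of 58580 count lines 5 were broken and left out, and 2042 genes of the TPM table had no count row. The libraries held 16441148 to 21871503 reads, and counting error alone is large for genes with few reads.

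Counts of 17747 genes that passed filterByExpr were fitted with edgeR 4.0.16 (TMM, quasi-likelihood, one fit over 12 libraries, R 4.3.3), adjusted by Benjamini-Hochberg over all genes, and called at an adjusted p under 0.05, with a fold change over 2 as a second limit. Intervals are 95% from the fitted SE. Exact permutation tests on TPM and on shares were two-sided. On data simulated for Cond 3 against Cond 1 (17311 genes tested), edgeR called 72 of 100 genes changed 2-fold and 88 of 100 changed 4-fold, with 10 false calls. The changed genes were drawn at random from all genes past the filter. These rates therefore do not give the recovery for metallothioneins, which had few reads and a wide spread. Alternatives were DESeq2 1.42.0, limma 3.58.1 on log2(TPM + 1) and log2(TPM + 0.1), upper-quartile normalization, other filters and thresholds, the 6 libraries of a comparison alone, a replicate block and each library left out. Gene lists were zinc transport, metal sensing, copper and iron, glucocorticoid response, oxidative stress, zinc enzymes and cell type markers. Named were all 8 genes, MTF1, list genes with the largest changes called (up to 3 per list and comparison, mean of at least 1 TPM, or any past 2-fold) and the genes most alike in pattern, of which the text gives a part. Members and lists were chosen with earlier results of these data known. Promoters came from RefSeq and gene models from GENCODE release 44.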

Additional observations from a re-analysis of the deposited data

How the results depend on the processing

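In Cond 2 against Cond 1 the 1 call (MT1E) became 3 with no filter on low counts (MT1E, MT1F and MT1G), 0 with limma on log2(TPM + 1) and on log2(TPM + 0.1), and 2 with limma restricted to genes at 1 TPM or more in each of the 12 libraries (the TPM filter) (SLC30A1 and MT1E), and it was 0 to 1 with each library left out. In Cond 3 against Cond 1 the 4 calls became 2 past a 2-fold change, 2 with the TPM filter, 2 with limma on log2(TPM + 0.1) and 1 with limma and the TPM filter, and 3 to 4 with each library left out. In Cond 3 against Cond 2 the 5 calls became 2 with the TPM filter, with or without limma, and 4 with limma on log2(TPM + 0.1), which lost MT1F, and stayed 5 with each library left out. The TPM filter keeps 4 of the members and removes MT1F, MT1G and MT1X, which fell under 1 TPM in a library, so those could not be called under it. MT1E passed that filter in Cond 3 against Cond 1 and lost its call with limma (adjusted p = 0.0716), not with edgeR. In Cond 4 no fit gave a call, and DESeq2 left the adjusted p of 5 of the 7 genes empty there.

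The libraries of the same replicate number deviated together little, if at all (correlations of −0.0131 to 0.0379 over 18 pairs, 0 of them over 0.1). Pairs of different numbers gave −0.0693 to 0.0607. By mean correlation, 9 of 12 libraries were still most alike with those of their own number, so a weak shared part remains possible. The numbers were not taken to pair samples. With a replicate block the counts were 1, 4, 0 and 5, unchanged from the fit without it.

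Sign changes occurred for values near 0 that were not called. MT2A in Cond 2 changed from −0.03 to 0.041 with limma on log2(TPM + 1), with or without the TPM filter, and 0.042 on log2(TPM + 0.1). With each library left out, the Cond 2 log2 fold change ran from −0.17 to 0.14 for MT2A, −0.078 to 0.50 for MT1H and −0.020 to 0.50 for MT1X, and that of Cond 4 from −0.37 to 0.12 for MT1E, −0.022 to 0.56 for MT1F, −0.62 to 0.12 for MT1G, −0.11 to 0.41 for MT1X and −0.28 to 0.055 for MT2A. No called value changed sign in any of these fits. Counted per gene and fit, a call was lost 7 times and gained 3 times with other settings, and lost 5 times with a library left out. The cause of these shifts was not tested.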

Other observations

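MT1XP1, a processed pseudogene of MT1X on chromosome 1 (GRCh38, 16241213 to 16241398, minus strand), was the single other metallothionein row with more than 3 reads over the 12 libraries. Its summed reads were 5 for Cond 1, 6 for Cond 2, 12 for Cond 3 and 25 for Cond 4, where single libraries gave 6, 5 and 14. The row was too low to be tested.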
